A study of Mus musculus with 10 samples.

Results

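The chromatin around 2 mouse genes, Lmx1a and Lmx1b, is described here in the cochlear duct epithelium of E13.5 embryos. All peaks within 100 kb of either gene body on the mm10 build were taken from the ATAC-seq and Sox4 CUT&RUN peak lists. They amounted to 646 merged peaks of 1154656 in the 5 ATAC lists and 3 Sox4 replicate lists, 368 around Lmx1a and 278 around Lmx1b. The summits of the ATAC peaks fell into 191 regions (109 and 82) of 319998 on the autosomes. ATAC-seq, which reads open chromatin by transposase insertion, was made from unsorted tissue. The sample titles call it whole organ, while the cell type label and the protocol name duct epithelium, freed with dispase and collagenase. The groups were SoxC double knockout (DKO, 2 libraries) and wildtype (3 libraries). The labels of these libraries name neither the deleted SoxC genes nor a Cre line or strain, and Pax2creSoxCfl/fl is given only for a single-cell library that was not analysed here. Sox4 CUT&RUN, which maps where the factor sits on DNA, was made from GFP-positive progenitors sorted by FACS from p27kip1-GFP mice labelled wildtype (3 replicates). The labels do not say whether replicates came from separate animals or pools. The loci were chosen by their ranks and folds in all 8 lists, which are therefore given as descriptions, with no test of genotype. With 3 against 2 libraries no exact one-sided p could have been below 0.1.

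Lmx1a and Lmx1b encode closely related transcription factors with a pair of LIM domains and a homeodomain. LIM domains bind cofactors such as Ldb1, and the homeodomain binds AT-rich DNA. In the mouse inner ear Lmx1a is known from the dreher mutants, in which the otocyst is malformed, its sensory patches are misplaced or fused, and neurogenesis is altered. The gene is active mainly in nonsensory parts of the otic epithelium. Lmx1b is known for dorsal patterning of the limb and, with Lmx1a, for midbrain dopaminergic neurons. SoxC factors are HMG-box proteins of progenitors and young neurons. Sox4 is one of them.

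The 250 bases before each annotated transcript start are shown because an ATAC region lay over them in every library. The sequences are RefSeq's for GRCm38.p6, read 5′ to 3′ along the gene's strand. Capitals mark matches, on either strand, to the GC box GGGCGG and the CCAAT box CCAAT. The Lmx1a sequence is chr1:167689308-167689557 on the plus strand and the Lmx1b sequence chr2:33641099-33641348 on the minus strand.
Lmx1a: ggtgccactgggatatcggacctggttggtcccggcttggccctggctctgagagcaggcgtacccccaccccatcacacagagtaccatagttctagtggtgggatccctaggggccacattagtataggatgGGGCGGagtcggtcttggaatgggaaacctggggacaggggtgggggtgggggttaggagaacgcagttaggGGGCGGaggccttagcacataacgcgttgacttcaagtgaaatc
Lmx1b: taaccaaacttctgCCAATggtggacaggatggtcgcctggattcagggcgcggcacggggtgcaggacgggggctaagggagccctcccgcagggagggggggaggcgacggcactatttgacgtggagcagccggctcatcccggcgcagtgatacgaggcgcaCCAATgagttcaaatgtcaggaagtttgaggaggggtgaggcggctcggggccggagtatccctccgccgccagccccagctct

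The Lmx1a promoter held 2 GC boxes, whose first bases lie 116 and 44 bases before the start, and no CCAAT box. The Lmx1b promoter held 2 CCAAT boxes, 236 and 84 bases before the start, and no GC box. Over 32841 mouse promoter windows of the same length, 32.7% held GGGCGG and 33.9% held CCAAT. Neither promoter held the SOX cores ACAAT or ACAAAG (27.7% and 16.5% of all windows), the homeodomain core TAATTA (4.84%) or the TATA box TATAAA (12.4%). TAAT, which is also part of TAATTA, occurred in 1 place at Lmx1a and nowhere at Lmx1b (54.9% of all windows), and each promoter held 1 E-box, CANNTG (66.2%). G and C made up 59.2% of the Lmx1a and 65.2% of the Lmx1b window, against a median of 52.4% over all windows. The Lmx1a window held 9 CpG dinucleotides and the Lmx1b window 19, against a median of 6. The motifs were chosen after the sequences had been seen, and a match describes letters, not binding.

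The lists hold no read counts, so depth is unknown, and regions were compared by the rank of their peak in each library, from 1 for the peak with the highest -log10 p. The merged autosomal lists differed in length, with 208902 and 192810 peaks in the DKO libraries and 165038, 145099 and 173032 in the wildtype libraries. Their median -log10 p was 23.8 and 14.0 in the DKO libraries, against 8.42, 6.60 and 4.93 in the wildtype libraries. In the DKO lists 58.9% and 69.1% of peaks shared their -log10 p with another peak, against 83.5%, 89.6% and 92.7% in wildtype. Peaks tied in both -log10 p and fold were ranked by position, so ranks within such ties are arbitrary. The peak lists were also made under settings that differed with genotype, so genotype and list processing cannot be told apart. In tissue that was not sorted, a change in the share of a cell type and a change of chromatin within it cannot be told apart either. A region is called behind in DKO where it was found in all 3 wildtype libraries and both DKO ranks came after every wildtype rank, and ahead in DKO in the opposite case. A library without a summit in the region counted as last. The change in rank is the log2 of the median DKO rank over the median wildtype rank, so that a positive value means a weaker place in DKO.

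At its own start Lmx1a was open in both genotypes at similar ranks, and Lmx1b was open at later ranks, with a stronger place in DKO. The region over the Lmx1a start (chr1:167689130-167689787, inside the annotated gene) ranked 20512 and 10050 in the DKO libraries, against 15891, 14495 and 18112 in the wildtype libraries. The DKO ranks lay on both sides of the wildtype ranks, and the change in rank was -0.06. The authors' fold enrichment over local background was 7.06 and 9.87 in DKO, against 8.97, 9.02 and 6.80 in wildtype, and these values overlapped as well. Ranked by that fold instead, the same region stood at 61556 and 33518 in DKO, against 32240, 19192 and 25039 in wildtype, and so behind in DKO with a change of 0.92. Leaving out a single library moved the change between -0.66, without DKO replicate 1, and 0.37, without DKO replicate 2.

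The region over the Lmx1b start (chr2:33640621-33641407) ranked 29514 and 31516 in the DKO libraries, against 57758, 46623 and 87395 in the wildtype libraries. Both DKO ranks were ahead of every wildtype rank, with a change of -0.92 that stayed between -1.25 and -0.77 when any 1 library was left out. The fold was 7.09 and 7.78 in DKO, against 4.65, 5.10 and 3.15 in wildtype, also without overlap. By rank of fold, however, the groups overlapped, at 61387 and 45771 in DKO, against 71852, 46076 and 85747 in wildtype, with a change of -0.42. Over gene starts of all genes with such a peak, 34.7% were ahead in DKO and 25.2% behind. The Lmx1b region also takes in the start of the divergent lncRNA C130021I20Rik, whose annotated body begins at 33641193, within the region.

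**Figure D1:**
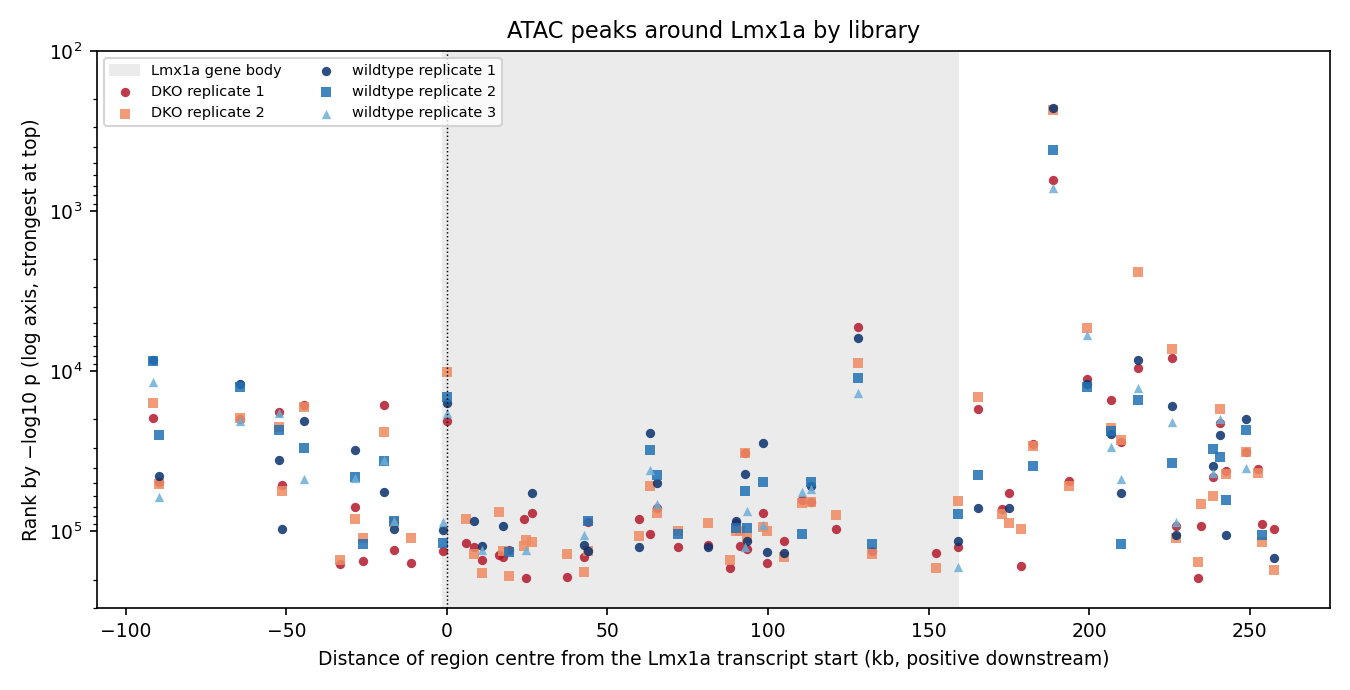
Rank by -log10 p (vertical log axis, strongest at the top) of every ATAC region found in all DKO or all wildtype libraries around Lmx1a, against the distance of the region's centre from the transcript start in kb (positive downstream). Points are libraries, DKO in red and wildtype in blue, and the shading is the gene body. The strongest region, downstream of the gene, stands at ranks 228 to 722 in all 5 libraries, far above the start.

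The strongest open chromatin around Lmx1a was not at its start. A region 29127 bp beyond the gene's downstream end (chr1:167877868-167878434) ranked 641 and 235 in the DKO libraries, against 228, 414 and 722 in the wildtype libraries, among the strongest peaks of each library. The groups overlapped, and the change in rank was 0.08. Its fold was 13.6 and 18.9 in DKO, against 19.9, 19.7 and 16.9 in wildtype, and by rank of fold it was behind in DKO, at 23036 and 5704 against 3704, 1168 and 1435. Sox4 replicate 1 had a peak there at rank 13673, and replicates 2 and 3 had none.

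Inside the gene, 128 kb downstream of the start, a region at chr1:167817124-167818180 ranked 5309 and 8948 in DKO, against 6202, 11073 and 13631 in wildtype. These ranks overlapped, although by rank of fold both DKO libraries (22996 and 24012) came after every wildtype library (11379, 11820 and 13765). A further strong region lay 39545 bp beyond the gene (chr1:167888286-167889314), at 11159 and 5369 in DKO, against 12019, 12496 and 5983 in wildtype. It overlapped between the groups by either measure. Both other strong regions stood over Rxrg, the neighbouring gene of a retinoid X receptor, which lies 48607 bp upstream of Lmx1a. The one inside Rxrg (chr1:167624814-167625399) ranked 19837 and 19522 in DKO, against 12048, 12621 and 20431 in wildtype, with overlap.

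Around Lmx1a 7 of the 68 regions found in all wildtype or all DKO libraries were behind in DKO (10.3%, against 18.3% of such regions over all autosomes), and 28 were ahead (41.2%, against 41.6%). The remaining 33 overlapped. Of the 26 regions found in all 5 libraries, 6 were behind and 6 ahead (23.1% each, against 30.0% behind and 24.5% ahead over all autosomes), and the median change was 0.01, against 0.11 over all autosomes. The shares around Lmx1a were thus near those of the background or below them. With peaks ranked by fold, 14 regions were behind and 25 ahead (20.6% and 36.8%, against 20.4% and 39.3%). Among those found in all 5 libraries 13 of 26 were then behind, against 34.6% over all autosomes, and 4 were ahead (15.4%, against 19.9%). With ranks as a share of list length, 3 were behind and 37 ahead (4.41% and 54.4%, against 12.8% and 51.9%). Without wildtype replicate 3, 11 were behind, and without DKO replicate 1 or 2, which leaves a single DKO library, 47 and 50 were ahead. Fewer ranks then have to separate, and no share over all autosomes was computed with a library left out, so these counts have no background.

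Among regions found in all 5 libraries, the Lmx1a region with the largest change towards weaker ranks in DKO lay in the gene body, 63.3 kb from the start (chr1:167752609-167753161). It ranked 103824 and 51765 in the DKO libraries, against 24242, 30828 and 41280 in the wildtype libraries, a change of 1.34 (0.75 without DKO replicate 1). Its fold was 3.45 and 6.02 in DKO, against 10.7, 6.37 and 4.91 in wildtype, so the folds overlapped, and Sox4 replicate 2 had a peak there at rank 21257. The region over the Rxrg start (chr1:167597678-167598598, 89632 bp upstream of the Lmx1a body) ranked 19721 and 15836 in DKO, against 8572, 8665 and 11680 in wildtype, a change of 1.04. Its fold was 7.82 and 8.90 in DKO, against 10.1, 8.90 and 7.76 in wildtype, again with overlap.

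A neighbouring intragenic region (chr1:167754562-167755177) ranked 71727 and 76594 in DKO, against 49820, 44150 and 67280 in wildtype. One 26673 bp upstream of the gene (chr1:167660528-167661557) stood at 70675 and 83685 in DKO, against 30961, 45896 and 46437 in wildtype, with a Sox4 replicate 2 peak at rank 36352. Changes of 0.33 and 0.45 separated the ranks narrowly in a region within the gene (chr1:167802359-167803390) and in one 79117 bp beyond it (chr1:167927858-167928386). The weak region over the annotated lower end of the gene (chr1:167688117-167688868) had rank 132817 in DKO replicate 1, against 98367, 118519 and 87517 in wildtype. DKO replicate 2 had no separate summit there and so counted as last. Its peak over the Lmx1a start, at rank 10050, nevertheless extended over this region. The start peaks of DKO replicate 1 and wildtype replicates 1 and 3 did so too. By -log10 p the order differed. None of the 26 Lmx1a regions found in all 5 libraries had a -log10 p in both DKO lists below every wildtype list. Over all autosomes 1.04% of such regions did, so this followed the lists as a whole. At the region over the Rxrg start it was 301 and 196 in DKO, against 123, 63.6 and 38.2 in wildtype.

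Among regions found in all 5 libraries, the largest change towards stronger ranks around Lmx1a was 66423 bp beyond the gene (chr1:167915164-167915688). This region ranked 8232 and 7314 in the DKO libraries, against 16402, 37419 and 20788 in the wildtype libraries, a change of -1.42. Its fold was 20.1 and 23.3 in DKO, against 15.5, 6.09 and 8.47 in wildtype, so rank and fold both separated the groups. A region named after its values were seen, 5944 bp beyond the gene (chr1:167854685-167855285), ranked 17268 and 14537 in DKO, against 71154 and 44577 in wildtype replicates 1 and 2 and no peak in wildtype replicate 3. Its fold was 11.6 in both DKO libraries, against 5.02 and 5.52 in those wildtype libraries, and Sox4 replicate 2 had a peak there at rank 21258. A region 50511 bp beyond the gene (chr1:167899252-167899791) stood at 27837 and 26784 in DKO, against 57378, 119406 and 46906 in wildtype. Upstream, towards Rxrg, chr1:167644817-167645341 ranked 16171 and 16792 in DKO, against 20415, 30156 and 46853 in wildtype. The region at chr1:167669713-167670257, 17973 bp before the gene, ranked 16292 and 23986 in DKO, against 56883, 36204 and 36058 in wildtype, and held a Sox4 replicate 1 peak at rank 13670. The intragenic region chr1:167781985-167782560 ranked 32452 and 32214 in DKO, against 43893, 56061 and 125140 in wildtype. The remaining one (chr1:167896213-167896739) changed by -0.40 and by 0.28, in the opposite direction, when peaks were ranked by fold.

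Regions of both kinds were interspersed. Upstream of Lmx1a 2 of 12 regions were behind and 5 ahead, in the gene body 4 of 34 were behind and 11 ahead, and downstream 1 of 22 was behind and 12 ahead, against 18.3% behind and 41.6% ahead over all autosomes. The region over the upper end of the gene (chr1:167848184-167849281) was weak, at 124343 and 64565 in DKO, against 115261, 77435 and 166318 in wildtype, with overlap.

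**Figure D2:**
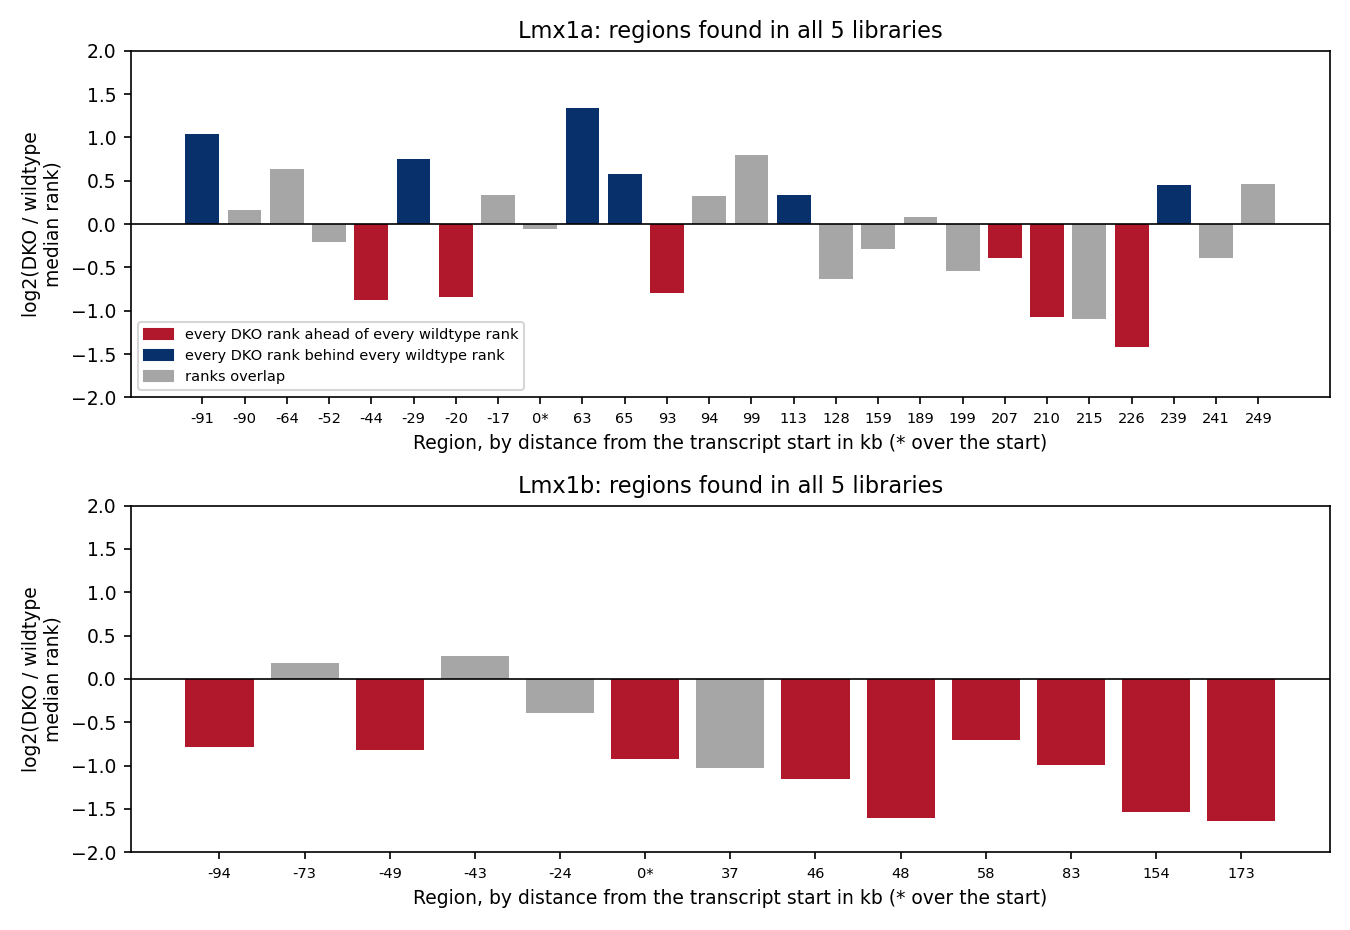
Log2 of the median DKO rank over the median wildtype rank for each region found in all 5 libraries around Lmx1a (top, 26 regions) and Lmx1b (bottom, 13 regions), in order of distance from the transcript start in kb. Values below 0 mean a stronger place in DKO. Red bars have every DKO rank ahead of every wildtype rank, blue bars every DKO rank behind, and grey bars overlap; Lmx1a shows 6 red and 6 blue bars, and Lmx1b 9 red and no blue.

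Around Lmx1b nearly all regions whose ranks separated the genotypes were ahead in DKO. Of 47 regions found in all wildtype or all DKO libraries, 29 were ahead (61.7%, against 41.6% over all autosomes) and 1 was behind (2.13%, against 18.3%), and 17 overlapped. Of the 13 regions found in all 5 libraries, 9 were ahead (69.2%, against 24.5% over all autosomes) and none behind (against 30.0%). Of these 13, 11 had a change below 0, as did 32528 of 71631 regions over all autosomes, and the median change was -0.92, against 0.11. By rank of fold, 22 of 47 were ahead (46.8%, against 39.3%) and 1 behind (against 20.4%), and 4 of the 13 were ahead (30.8%, against 19.9%) and none behind (against 34.6%). The shares ahead were thus nearer the background under this ranking. With ranks as a share of list length 34 were ahead (72.3%, against 51.9%) and 1 behind (against 12.8%). Leaving out 1 library gave 29 to 44 regions ahead and 1 to 5 behind. The 44 were found without DKO replicate 2, and 2, 5 and 2 were behind without wildtype replicate 1, 2 and 3. No share over all autosomes was computed for these counts with a library left out. The deposited values showed a like order, since 10 of the 13 regions had both DKO folds above every wildtype fold (76.9%, against 40.0% over all autosomes). At Lmx1a this held for 7 of 26 (26.9%). The -log10 p stood higher in both DKO lists at 12 of 13 Lmx1b regions and 23 of 26 Lmx1a regions, against 80.7% over all autosomes, so it followed the lists as a whole.

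**Figure D3:**
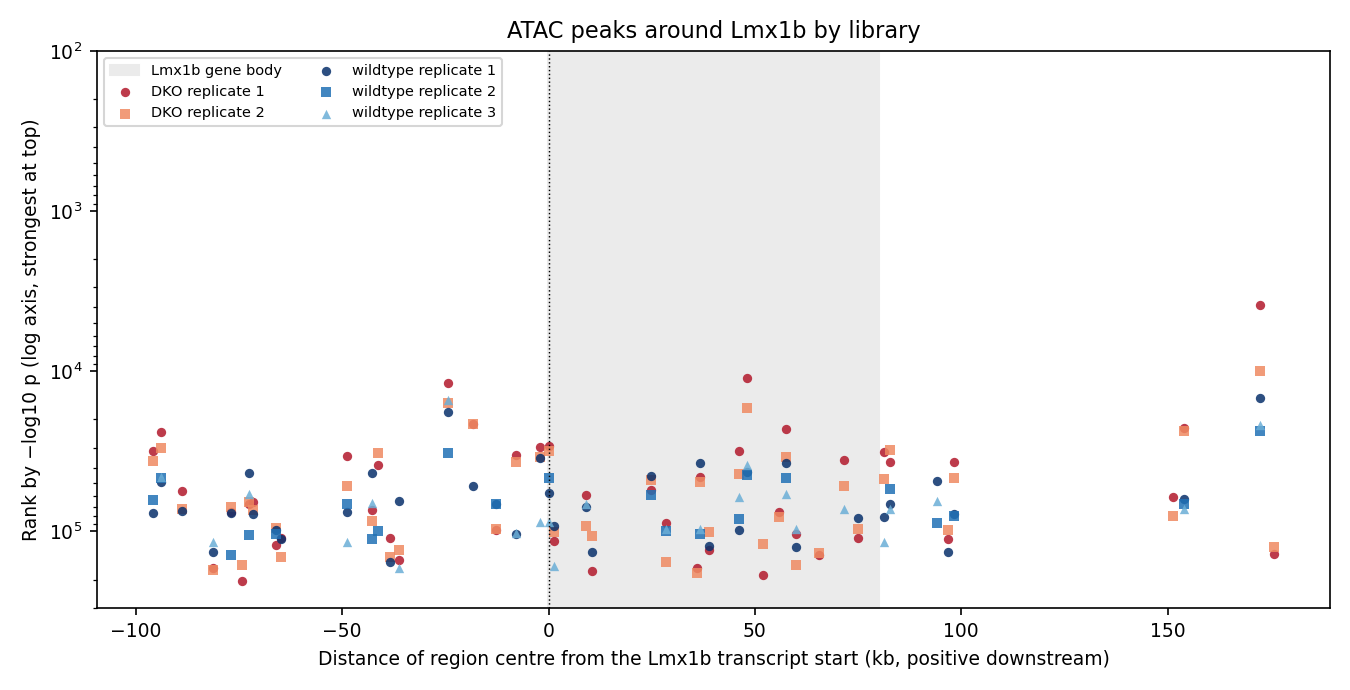
Rank by -log10 p (vertical log axis, strongest at the top) of every ATAC region found in all DKO or all wildtype libraries around Lmx1b, against distance from the transcript start in kb (positive downstream). DKO points are red, wildtype points blue, and the gene body is shaded. The only points within the 10000 strongest peaks are those of the 2 DKO libraries over the Zbtb43 start, at the far right.

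In both DKO libraries and in wildtype replicates 1 and 2 the strongest peak around Lmx1b belonged to a neighbour. A region over the start of Zbtb43, which encodes a zinc finger protein of the BTB family (chr2:33468332-33468862, 92103 bp beyond Lmx1b), ranked 3880 and 9927 in the DKO libraries, against 14753, 23745 and 21570 in the wildtype libraries. Its change of -1.64 was the largest of either locus among regions found in all 5 libraries. The fold was 20.5 and 17.0 in DKO, against 16.7, 8.88 and 8.28 in wildtype, while by rank of fold DKO replicate 2 (9215) came after wildtype replicate 1 (8147). The strongest region between the gene and its other neighbour Mvb12b lay 24045 bp upstream of Lmx1b (chr2:33665253-33665818). It ranked 11771 and 15701 in DKO, against 18027, 32615 and 15104 in wildtype, with overlap. In wildtype replicate 3 it was the strongest of the locus, and by median wildtype rank it was ahead of the Zbtb43 start (18027 against 21570).

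Inside Lmx1b the strongest region in DKO was at chr2:33592832-33593423, 48.0 kb from the start. It ranked 11089 and 16988 in the DKO libraries, against 42689, 44172 and 38485 in the wildtype libraries, a change of -1.60. The fold of 9.16 and 9.65 in DKO, against 5.89, 5.30 and 4.89 in wildtype, did not overlap, but by rank of fold the groups did, with a change of -0.12. A second region nearby (chr2:33594630-33595452) ranked 31284 and 43576 in DKO, against 98336, 83568 and 60727 in wildtype. Another (chr2:33583238-33583768) ranked 22962 and 34089 in DKO, against 37351, 46311 and 58275 in wildtype. These intragenic regions were each ahead in DKO, with changes of -1.16 and -0.70.

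Downstream, in the interval of lncRNA genes between Lmx1b and Zbtb43, a region at chr2:33486798-33487595 ranked 22731 and 23474 in DKO, against 63191, 66998 and 72001 in wildtype. Its fold of 19.0 and 16.6 in DKO, against 5.71, 4.08 and 3.62 in wildtype, was the widest separation by fold among the named Lmx1b regions, and by rank of fold the change was -2.84. A region 2277 bp beyond the gene (chr2:33558165-33558688) ranked 36809 and 30831 in DKO, against 67492, 54063 and 72003 in wildtype. On the upstream side the region at chr2:33734713-33735266, inside Mvb12b, a gene of the endosomal sorting machinery, ranked 23806 and 29970 in DKO, against 49202, 46312 and 45532 in wildtype. Ahead in DKO were 12 of 20 regions upstream, 9 of 18 in the gene body and 8 of 9 downstream, against 41.6% over all autosomes.

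**Figure D4:**
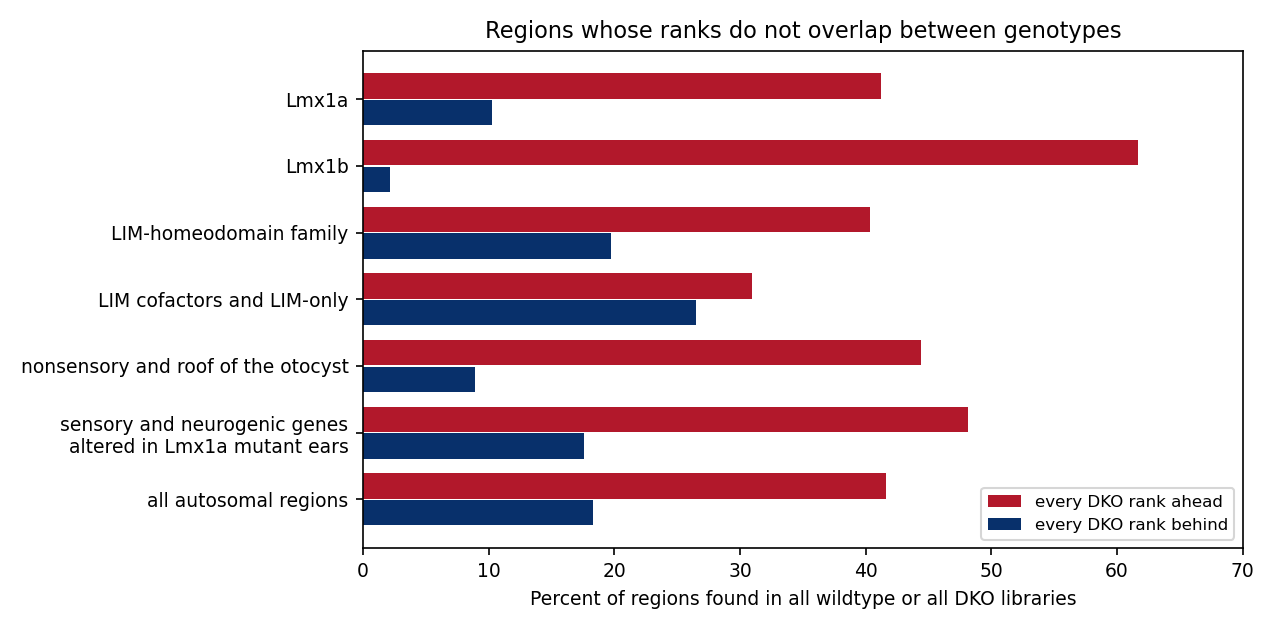
Percent of the regions found in all DKO or all wildtype libraries that had every DKO rank ahead (red) or behind (blue), for each locus, for 4 lists of related genes within 100 kb of each gene, and for all autosomal regions. Lmx1b has the longest red bar, 61.7%, and the shortest blue bar, 2.13%, while the background is 41.6% and 18.3%. Each list pools the regions of several genes. Single genes within the lists can have larger shares ahead, as at Lhx3 (19 of 26 regions), or behind, as at Lmo3 (18 of 24).

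Peaks missing altogether from a genotype were mostly weak. Around Lmx1a 16 regions had a peak in both DKO libraries and in no wildtype library (23.5%, against 19.4% of the regions over all autosomes found in all wildtype or all DKO libraries). No region had the opposite pattern, which 2.20% had over all autosomes. Of these 16, 5 were among the 100000 strongest peaks in both DKO libraries. The strongest was 93141 bp beyond the gene (chr1:167941882-167942383), at ranks 40789 and 43211 with folds of 9.19 and 7.69. The next, 34344 bp beyond the gene (chr1:167883085-167883587), ranked 48802 and 51867. The folds of all 16 ran from 2.05 to 9.19. Around Lmx1b 7 regions were found in both DKO and no wildtype library (14.9%, against the same 19.4%), led by chr2:33489493-33490006 at ranks 60700 and 79771. A single region (2.13%, against 2.20%) was found in all wildtype libraries and in neither DKO library, 13531 bp beyond Lmx1b (chr2:33546414-33547434), at wildtype ranks 48146, 88506 and 64182 with folds of 3.36 and 3.88 in wildtype replicates 2 and 3 and a higher one in replicate 1. It was the region counted as behind in DKO at this locus. The DKO lists are longer, and the part of that length in these counts was not tested.

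Taken over whole lists, Lmx1a had 93 and 90 merged peaks in the DKO libraries, against 58, 45 and 44 in the wildtype libraries. Among the 50000 strongest peaks of each library the counts were 23 and 20 in DKO, against 21, 23 and 20 in wildtype. Lmx1b had 71 and 63 merged peaks in DKO, against 55, 30 and 34 in wildtype. Its counts among the 50000 strongest were 19 and 18 in DKO, against 11, 6 and 4 in wildtype. At equal rank, the Lmx1a counts overlapped between genotypes and the Lmx1b counts did not. Such counts were not made for other loci, so neither these nor the merged counts have a background, and the DKO lists are longer as a whole.

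Sox4 peaks were sparse and shared little between replicates. Replicates 1 to 3 had 22, 9 and 7 peaks around Lmx1a and 16, 5 and 4 around Lmx1b. A site, with the summit windows of at least 2 replicates overlapping, occurred at 3 places around Lmx1a and at none around Lmx1b. Over all autosomal coding genes 70.4% had at least 1 site within 100 kb and 19.1% had 3 or more, with a median of 1. The Lmx1a sites lay just upstream of the Rxrg start (chr1:167597780-167598349, ranks 60795 in replicate 1 and 6215 in replicate 3), in the Lmx1a body outside any ATAC region (chr1:167785840-167786828, ranks 60483 and 6638 in the same replicates), and 43618 bp beyond the gene (chr1:167892359-167893039, ranks 57066 in replicate 1 and 3557 in replicate 2). All 3 rested on a peak of replicate 1, at ranks 57066 to 60795 of 158444, and without that replicate, or with the 20000 strongest peaks of each, none was left. Without replicate 3, 1 was left.

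The strongest single Sox4 peak around Lmx1a was in replicate 1, in the gene body at chr1:167745490-167745762, at rank 2669 with a fold of 5.67. In replicate 2 the strongest place was shared by 2 peaks with the same -log10 p and fold. They were chr1:167686630-167686988, 1242 bp before the annotated gene, at rank 3556, and chr1:167892428-167892735, 43687 bp beyond the gene, at rank 3557. Replicate 3 had its strongest beside the Rxrg start. Around Lmx1b the strongest was a replicate 2 peak 31209 bp beyond the gene (chr2:33529412-33529756), at rank 2376 with a fold of 4.76. The nearest to the Lmx1b start was a replicate 3 peak at chr2:33642233-33642532, 1025 bp before the gene, at rank 8608. Of these single peaks, only the one at Rxrg and the replicate 2 peak at rank 3557 were within a site.

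Over the ATAC regions found in all 3 wildtype libraries lay 4 of 22, 2 of 9 and 2 of 7 Sox4 peaks of replicates 1 to 3 around Lmx1a, against 6.17%, 8.22% and 11.1% of all autosomal peaks of these replicates. Around Lmx1b the counts were 1 of 16, 0 of 5 and 0 of 4. Ranks among Sox4 peaks are coarse, since 99.8%, 99.4% and 98.6% of the peaks of replicates 1 to 3 shared their -log10 p with another peak. No control antibody library was used here. A further list deposited for replicate 1 had 42 peaks around Lmx1a and 40 around Lmx1b, of which 7 and 4 lay over such ATAC regions, against 6.35% of its autosomal peaks.

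**Figure D5:**
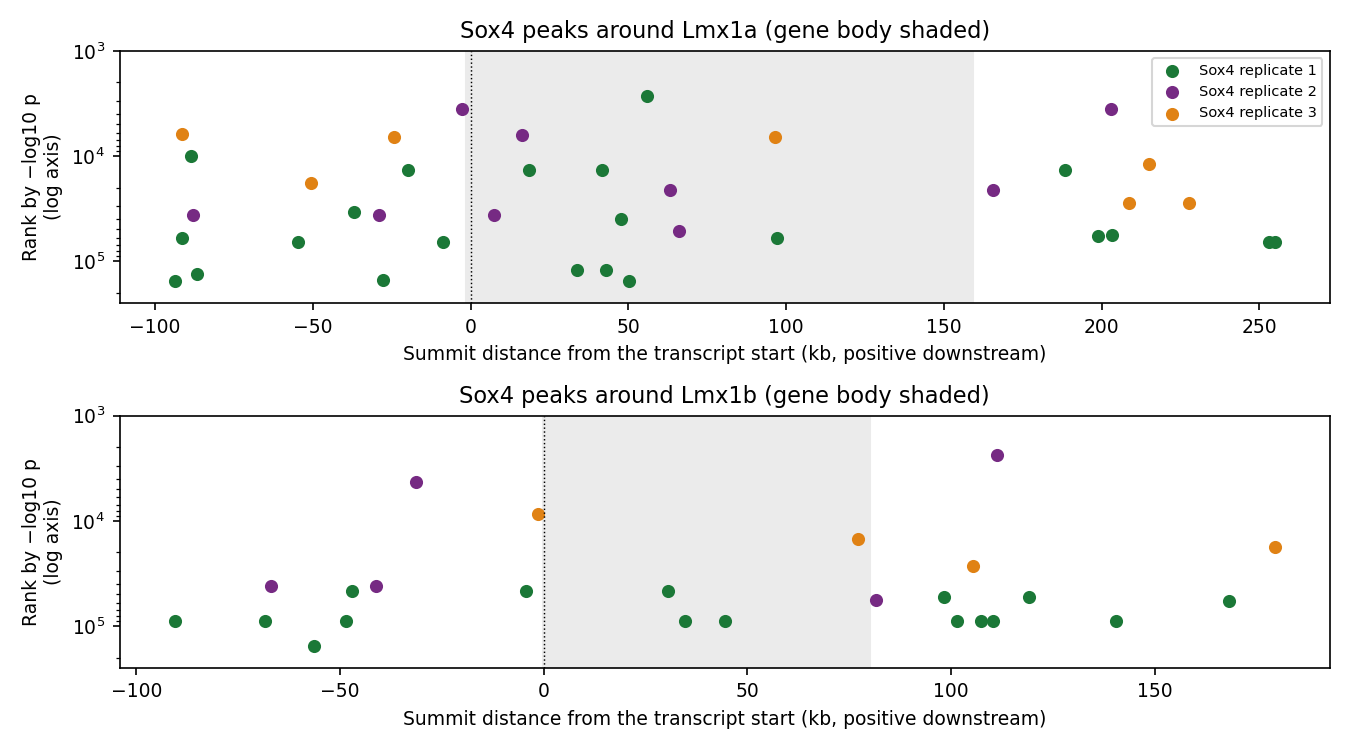
Sox4 peaks of the 3 replicates around Lmx1a (top) and Lmx1b (bottom), by distance of the summit from the transcript start in kb (positive downstream) and rank by -log10 p (log axis, strongest at the top). Colours are replicates and the shading is the gene body. Peaks of different replicates seldom share a position; around Lmx1b none do.

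The other LIM-homeodomain genes, the cofactors, and genes tied to Lmx1a in the ear were set beside the members. Around 10 further LIM-homeodomain genes 42 of 213 regions were behind in DKO and 86 ahead (19.7% and 40.4%, against 18.3% and 41.6% over all autosomes). Taken singly, 7 of these 10 genes had more regions ahead than behind, and 3 had more behind. Lhx3 had 19 of 26 regions ahead and Lhx1 15 of 21, each with 0 behind, so the excess ahead at Lmx1b was not particular to it. Isl1 had 1 of 15 ahead and 8 behind. The starts of the 10 genes differed among themselves. Of 9 starts that could be read, 5 were behind and 3 ahead, against 25.2% behind and 34.7% ahead over all gene starts. Isl1, a gene of developing sensory patches and neurons, had start ranks of 23673 and 24488 in DKO, against 1812, 1375 and 900 in wildtype. Isl2 had 10059 and 5830 in DKO, against 790, 1463 and 1708 in wildtype, and Lhx2 had 41558 and 46414 in DKO, against 9787, 6090 and 11187 in wildtype. Lhx3, a factor of pituitary and motor neurons, was ahead, at 17250 and 16986 in DKO, against 24294, 54060 and 22656 in wildtype. By rank of -log10 p the Lmx1b start was thus ahead, like those of Lhx1, Lhx3 and Lhx6. The Lmx1a start overlapped and so differed from the starts behind, those of Isl1, Isl2, Lhx2, Lhx4 and Lhx9. By rank of fold, however, the Lmx1a start was behind in DKO, and start ranks by fold were not computed for the other genes.

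Around the LIM cofactor and LIM-only genes, among them Ldb1 and Lmo4, 48 of 181 regions were behind (26.5%, against 18.3%) and 56 ahead (30.9%, against 41.6%). None of the 3 starts with peaks was separated, while over all gene starts 25.2% were behind and 34.7% ahead. Ldb1 had start ranks of 14555 and 19572 in DKO, against 7102, 15617 and 18563 in wildtype. The 15 nonsensory and roof genes of the otocyst had 34 of 381 regions behind (8.92%, against 18.3%) and 169 ahead (44.4%, near the background of 41.6%). None of their 10 readable starts was separated, against the same shares of all gene starts. Gata2, for example, had 29731 and 26630 in DKO, against 29007, 41654 and 33708 in wildtype. The 8 sensory and neurogenic genes altered in Lmx1a mutant ears had 38 of 216 regions behind (17.6%) and 104 ahead (48.1%), against the same backgrounds. Of their 8 readable starts 2 were behind and 1 ahead, against 25.2% behind and 34.7% ahead over all gene starts, and the others were not separated. Fgf10 was behind, at 44062 and 46540 in DKO, against 20362, 13966 and 14893 in wildtype. So was Atoh1, with no peak in DKO replicate 1 and rank 58447 in replicate 2, against 34789, 26341 and 32188 in wildtype. Lfng, which had no start peak in wildtype, was ahead, at 9800 and 14115.

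Start ranks of markers of other cell types were set beside the 25.2% of all gene starts that were behind in DKO and the 34.7% that were ahead. Starts of neuronal markers were behind in DKO in 4 of 5 cases (median change 1.33), of mesenchyme markers in 4 of 6 (0.69), of otic epithelium in 1 of 4 (0.14) and of epithelium in 1 of 4, with 2 ahead (-0.39). For glia with melanocytes and for blood with endothelium and macrophages 1 of 2 readable starts was behind and none ahead. Across libraries the median start rank of the mesenchyme list was 47389 and 51329 in DKO, against 38390, 24037 and 22357 in wildtype, and that of the neuron list 67864 and 45920 in DKO, against 16533, 32809 and 19262 in wildtype. Of the epithelium markers, all 4 with a start in the table had a start peak in every library, Epcam at ranks 5436 and 2503 in DKO and 1744, 3037 and 3584 in wildtype. The part of these cell types in the values at Lmx1a and Lmx1b was not tested.

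Among 10654 coding genes with a start peak in all 5 libraries, those nearest to Lmx1a in their start ranks, by Euclidean distance of log10 rank over the 5 libraries, were Dyrk2 (0.0833), Park7, Cars2, Abhd14a and Atpaf1 (0.129). Dyrk2 had 17915 and 9332 in DKO, against 17058, 14293 and 19782 in wildtype. Nearest to Lmx1b were Dock8 (0.108), Proca1, Aldh1a7, Shisal2a and Cnga3 (0.155). Dock8 had 32353 and 39447 in DKO, against 57688, 44236 and 86748 in wildtype.

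At the limit of 100 kb, the outermost peaks inside lay 98340 bp (DKO replicate 1, rank 190810) and 98012 bp (wildtype replicate 1, rank 147550) from Lmx1a, and the nearest outside 102171 bp (DKO replicate 1, rank 201335) and 102862 bp (Sox4 replicate 2, rank 18454). For Lmx1b the outermost inside lay at 99799 and 99583 bp (wildtype replicates 3 and 2, ranks 157807 and 111977) and the nearest outside at 100985 and 101135 bp (DKO replicates 1 and 2, ranks 158979 and 141215).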

How the data were processed

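The peak lists were deposited by the authors as MACS2 narrowPeak tables, 1 per library, with fold enrichment deposited as a ratio and significance deposited as -log10 p, on mm10. The submitters' processing notes list STAR, MACS2 and deepTools, plus UMI-tools for the Sox4 libraries, give no version of these, and name fewer tools for 2 of the wildtype libraries. The names of the DKO lists state a p threshold and a cap on peak number. Read totals are not given in the sources used here, so depth and its precision are unknown.

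Overlapping peaks of a library were merged (strongest summit kept), autosomal peaks were ranked by -log10 p, and summits extended by 250 bp either way were merged across the 5 ATAC libraries (Python 3.11.15, pandas 2.3.3, numpy 2.4.6). The script that calls regions ahead or behind was tested on simulated peak lists with known shifts. No statistical test was run on the deposited values. Genes came from RefSeq (GRCm38.p6), with starts for 16457 of 20665 autosomal coding genes, and a gene start took the strongest peak within 1 kb.

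Named were the regions over gene ends, the 5 other regions per locus with the best wildtype rank, up to 6 separated regions each way found in all 5 libraries, regions missing from 1 genotype, the strongest Sox4 peaks, and the 5 genes most like each member. Of regions missing from wildtype the leading ones are printed. The members, lists and rules were chosen with earlier results of these data known.

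The alternatives were ranking by fold or by share of list length, full peak extents, fewer peaks, a limit of 50 kb, and leaving out each library. The second list deposited under Sox4 replicate 1, tagged in its peak names as another library, served only as an alternative. The single-cell matrices were not analysed here.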

Additional observations from a re-analysis of the deposited data

How the results depend on the processing

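Around Lmx1a the count of regions behind in DKO, 7, was 14 with peaks ranked by fold and 3 with ranks as a share of list length, and 8 to 11 when 1 library was left out. The count ahead, 28, was 15 with the 100000 strongest peaks of each library, where 36 regions in place of 68 could be read and the share ahead was 41.7% in place of 41.2%, and 33 to 50 when 1 library was left out. The change at the Lmx1a start, -0.06, was 0.92 by fold and -0.41 by share of list length, and -0.66 to 0.37 when 1 library was left out. Around Lmx1b the count behind, 1, was 1 to 5 and the count ahead, 29, was 29 to 44 when 1 library was left out, and 19 within 50 kb of the gene. The change at the Lmx1b start, -0.92, was -0.42 by fold and -1.25 to -0.77 when 1 library was left out. The 3 Sox4 sites around Lmx1a were 0 with the 20000 strongest peaks, 13 with the further list of replicate 1 and 0 to 2 when 1 replicate was left out. The 0 sites around Lmx1b were 8 with that list and 0 in each case when 1 replicate was left out. Fewer peaks enter where a library is left out, the distance is shortened or a rank limit is set. With a library left out, a call also requires fewer ranks to separate. Shares over all autosomes were not computed for the counts with a library left out or within 50 kb. The cause of the other differences was not tested. Among 27 single regions and 216 values, 172 moved by less than the standard deviation of log2 rank over the 3 wildtype libraries, and 43 moved by more. The 172 include the values with full peak extents, where the peaks keep their ranks and each region kept its value, so these say little about stability. A reversal was counted only for regions whose ranks separated the genotypes. It occurred in 1 value, at chr1:167896213, with 0.28 by fold. Some regions with overlapping ranks also changed sign and were not counted as reversed, among them the Lmx1a start, with 0.92 by fold. No paired analysis was possible because the values come from no test and the labels name no litter, batch or animal behind the replicate numbers. Depth is unknown, so a peak missing from a list is not evidence of closed chromatin.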

Other observations

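The further list of Sox4 replicate 1 held 370526 merged autosomal peaks, which covered 10.3% of the span of the autosomes, against 158444 in the replicate's own list, which covered 1.68%. It overlapped 88.2% of the peaks of replicate 2, 77.8% of those of replicate 3 and 19.1% of those of the own list of replicate 1. Its summit stood at the same base as that of a peak in 7190 cases for replicate 2, in 1868 for replicate 3 and in 21 for replicate 1. Around Lmx1a it overlapped 9 of 9 peaks of replicate 2, 4 of 7 of replicate 3 and 3 of 22 of replicate 1, and around Lmx1b 5 of 5, 3 of 4 and 1 of 16.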
